A study of Mus musculus with 33 samples.

Results

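The genes of 9 macrophage surface receptors, Marco, Msr1, Mrc1, Clec4n, Clec10a, Clec4d, Clec4e, Clec7a and Ccrl2, were followed across fibroblast and osteoblast cultures of the mouse. They were taken by name as a list of 9 of the 17982 genes in the deposited count table, and all 9 passed the filter on low counts that left 13438 genes for testing. The list was drawn up with the 3 group comparisons of this table and the authors' result tables already known. Fold changes, calls and overlaps of these 9 genes are therefore a description, and no p-value is given for them. Ccrl2 is neither a lectin nor a scavenger receptor, so the name macrophage lectins and scavenger receptors covers the other 8.

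Scavenger receptors are membrane proteins of macrophages that bind modified lipoproteins, microbial surfaces and debris and carry them into the cell. C-type lectin receptors bind sugars or glycolipids on microbes and damaged cells. Some of them take up their ligand, and others signal through the adaptor Fcer1g or a motif of their own to the kinase Syk and the Card9, Bcl10 and Malt1 complex. Bone holds resident macrophages that lie beside osteoblasts, and cultures grown from calvaria are known to contain them.

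The fibroblasts were tail-tip cells of Col2.3GFP mice, which carry green fluorescent protein under a collagen type I promoter fragment active in osteoblast-lineage cells, and they were frozen after a pair of passages. Induced osteoblasts (iOB) were such fibroblasts after lentivirus carrying a transcription factor gene and, from day 5, osteogenic medium. Calvarial-derived osteoblasts (calvarial-OB) came from calvarial progenitor cells, and the labels assign them to dataset 2. A difference between datasets and a difference between cell types therefore cannot be told apart for these libraries. The GFP-sorted fraction of iOB (iOB GFP+) is known here only through the authors' table against fibroblasts. All of these cells were sequenced as poly-A RNA, and no group with virus or medium alone is labelled. Age, sex and mouse strain beyond Col2.3GFP are not given in the labels used here. The labels do not say whether the 3 libraries of a group came from separate cultures or animals, so p-values measure only the spread between these libraries.

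Total counts were 7634593 to 13367273 in fibroblast, 5646299 to 8187715 in iOB and 8219411 to 15023771 in calvarial-OB libraries. Within groups, libraries correlated at 0.969 to 0.994 across genes, the lowest values being those of calvarial-OB replicate 1 with the other calvarial-OB libraries. Of 13 osteoblast genes 12 were called higher than fibroblasts in iOB and 12 in calvarial-OB, beside 22.7% and 28.4% of all tested genes. Spp1 was the 1 called lower in each, beside 20.6% and 27.4%. Between the osteoblast cultures 4 were higher in iOB and 5 lower, beside 24.7% and 24.1%. Ibsp, the bone sialoprotein gene, stood at 1.88 to 9.21 CPM (counts scaled to library size) in fibroblasts, 954.1 to 1195 in iOB and 2596 to 3137 in calvarial-OB. Sp7 stood at 3.07 to 4.25, 518 to 722 and 42.4 to 82.1 CPM in the same groups. Macrophage markers were present in the osteoblast cultures. The summed level of 23 macrophage core genes, among them Csf1r, Ptprc, Lyz2 and the C1q chains, was 57.4 to 119.1 CPM in fibroblasts, 2957 to 4689 in iOB and 4199 to 7926 in calvarial-OB. Markers of other blood cells were few but not all near 0. Of 7 neutrophil genes S100a8 had 3, 2 and 2 counts in all in fibroblast, iOB and calvarial-OB libraries and Mpo 0, 3 and 10. Csf3r, the G-CSF receptor gene, had 0, 40 and 96 counts and was called higher than fibroblasts in both osteoblast cultures (edgeR adjusted p = 0.0040 and 0.00062), while Lcn2 was not called. Of 4 lymphocyte genes Ms4a1 had 0, 1 and 1 counts. Cd4, the tested one, had 0, 5 and 104 counts and was called higher in both cultures (edgeR adjusted p = 0.049 in iOB and 4.1e-05 in calvarial-OB) and lower in iOB than in calvarial-OB (edgeR adjusted p = 0.00052). The call of Cd4 in iOB was lost when any 1 library other than calvarial-OB replicate 1 was left out. Of 5 mast cell genes Cpa3 had 0, 0 and 8 counts. Kit, the stem cell factor receptor gene, had 5, 51 and 16 counts and was higher in iOB than in fibroblasts by 3.73 ± 0.51 on the log2 scale and than in calvarial-OB by 2.18 ± 0.42 (edgeR adjusted p = 0.00010 and 0.0011). The part of these cells in the values of the receptors was not tested. The plasmacytoid cell gene Siglech had 0 to 6 counts per group. Osteoclast markers were divided. The fusion gene Dcstamp reached at most 1.15 CPM, Ocstamp 0.82 and Calcr 0.65. Acp5 stood at 1.22 to 2.82 CPM in fibroblasts, 16.2 to 31.6 in iOB and 20.9 to 26.5 in calvarial-OB. Ctsk stood at 110 to 158, 215 to 222 and 261 to 294 CPM in the same groups. In bulk RNA, fewer cells of a type and less RNA per cell cannot be told apart.

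Promoter sequence was available in RefSeq windows (GRCm38.p6) for 6 of the 9 genes, Marco, Mrc1, Clec4d, Clec4e, Clec7a and Ccrl2. The windows are shown because these genes were all higher than fibroblasts in both osteoblast cultures; between iOB and calvarial-OB they differed among themselves, as given further on. In the 250 bases before the start site, 10 motifs chosen with the expression data known were searched on both strands. GAGGAA, the core that the macrophage factor PU.1 (Spi1) prefers, was found in 5 of the 6 genes (all but Ccrl2) and in 23.3% of 32851 windows of this length. The longer form GAGGAAG, which overlaps it, was in 3 of the 6 genes (Marco, Mrc1 and Clec4d) and in 10.6% of windows. In the 4 sequences that follow, written 5′ to 3′ on the gene's strand and ending at the base before the start site, capitals mark GAGGAA or its reverse complement. Mrc1 is at chr2:14229214-14229413 (+ strand), Clec4d at chr6:123261857-123262106 (+ strand), Clec4e at chr6:123289872-123290011 (- strand) and Marco at chr1:120505025-120505184 (- strand).
Mrc1: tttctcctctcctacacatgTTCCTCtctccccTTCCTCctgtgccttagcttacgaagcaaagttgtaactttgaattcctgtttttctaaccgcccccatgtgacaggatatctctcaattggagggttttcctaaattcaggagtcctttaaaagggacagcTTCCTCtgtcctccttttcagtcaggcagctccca
Clec4d: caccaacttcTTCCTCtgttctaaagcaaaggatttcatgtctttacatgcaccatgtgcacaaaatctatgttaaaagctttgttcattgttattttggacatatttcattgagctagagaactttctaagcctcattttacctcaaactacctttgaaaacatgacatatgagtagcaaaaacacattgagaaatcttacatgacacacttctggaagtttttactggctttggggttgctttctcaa
Clec4e: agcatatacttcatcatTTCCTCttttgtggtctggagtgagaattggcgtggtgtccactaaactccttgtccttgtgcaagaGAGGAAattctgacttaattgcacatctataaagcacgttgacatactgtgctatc
Marco: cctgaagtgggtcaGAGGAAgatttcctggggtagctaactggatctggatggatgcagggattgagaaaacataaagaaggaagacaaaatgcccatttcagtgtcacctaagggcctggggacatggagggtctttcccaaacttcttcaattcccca
Mrc1 held 3 matches, with first bases at -180, -167 and -35 from the start site, and Clec4e held 2, at -123 and -56. Clec4d held 1 at -240 and Marco 1 at -146. Clec7a, not printed, held 1, at -96 and -90 from its alternative start sites.

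The NF-kB consensus was in 3.90% of windows and in none of the other 5 genes. Ccrl2, with windows at 3 alternative start sites, held it in only 1 of them. Ccrl2 was counted for a match in any of 3 windows, so it is not directly comparable with the share per window. Its sequence at chr9:111057519-111057618 (- strand) is shown because, of the 9 genes, Ccrl2 had the largest ratio of calvarial-OB replicate 1 to the mean of replicates 2 and 3, 12.2-fold on CPM + 1. Capitals mark the match, whose first base lies at -56.
Ccrl2: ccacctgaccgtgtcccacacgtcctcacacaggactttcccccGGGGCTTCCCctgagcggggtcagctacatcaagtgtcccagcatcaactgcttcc
Of the other motifs, Clec4e held TATAAA (12.4% of windows) and TTGCNNAA (9.56%), and Marco held a variant of the NF-kB motif (1.41%), which can overlap the consensus. The wider search for TTACNNAA or TTGCNNAA, which contains the previous motif, matched Clec4e alone (16.5%). The motif TCACATG, searched together with its variants TCACGTG, further TCATATG, and further TCATGTG, of which TCACGTG contains CACGTG, matched Mrc1 and Clec4d (10.2%). TGANTCA (6.75%) and CACGTG (6.02%) matched none of the 6. A match describes these letters only, and binding was not measured. Clec4n, Clec4d and Clec4e are neighbours on chromosome 6 in the RefSeq order of genes, and Clec10a lies beside its close paralog Mgl2 on chromosome 11, with which it may share reads, so the counts of Clec10a are uncertain to that extent.

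The comparison with fibroblasts asked how far the receptors were present in the osteoblast cultures and not in the starting cells. Every receptor gene was low in the 3 fibroblast libraries and higher in all 3 iOB and all 3 calvarial-OB libraries, with no overlap between groups. All 9 were called higher in iOB, where 22.7% of tested genes were, and all 9 in calvarial-OB, where 28.4% were. Over all tested genes, libraries of iOB lay above those of fibroblasts without overlap for 30.2% of genes, and those of calvarial-OB likewise for 30.2%. Since the list was chosen from these comparisons, nothing is read from the counts. The median log2 fold change of the 9 was 5.98 in iOB and 7.77 in calvarial-OB, unchanged with Clec4n at its lower bound, against -0.04 and 0.02 over all tested genes. Both comparisons use the same fibroblast libraries.

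**Figure D1:**
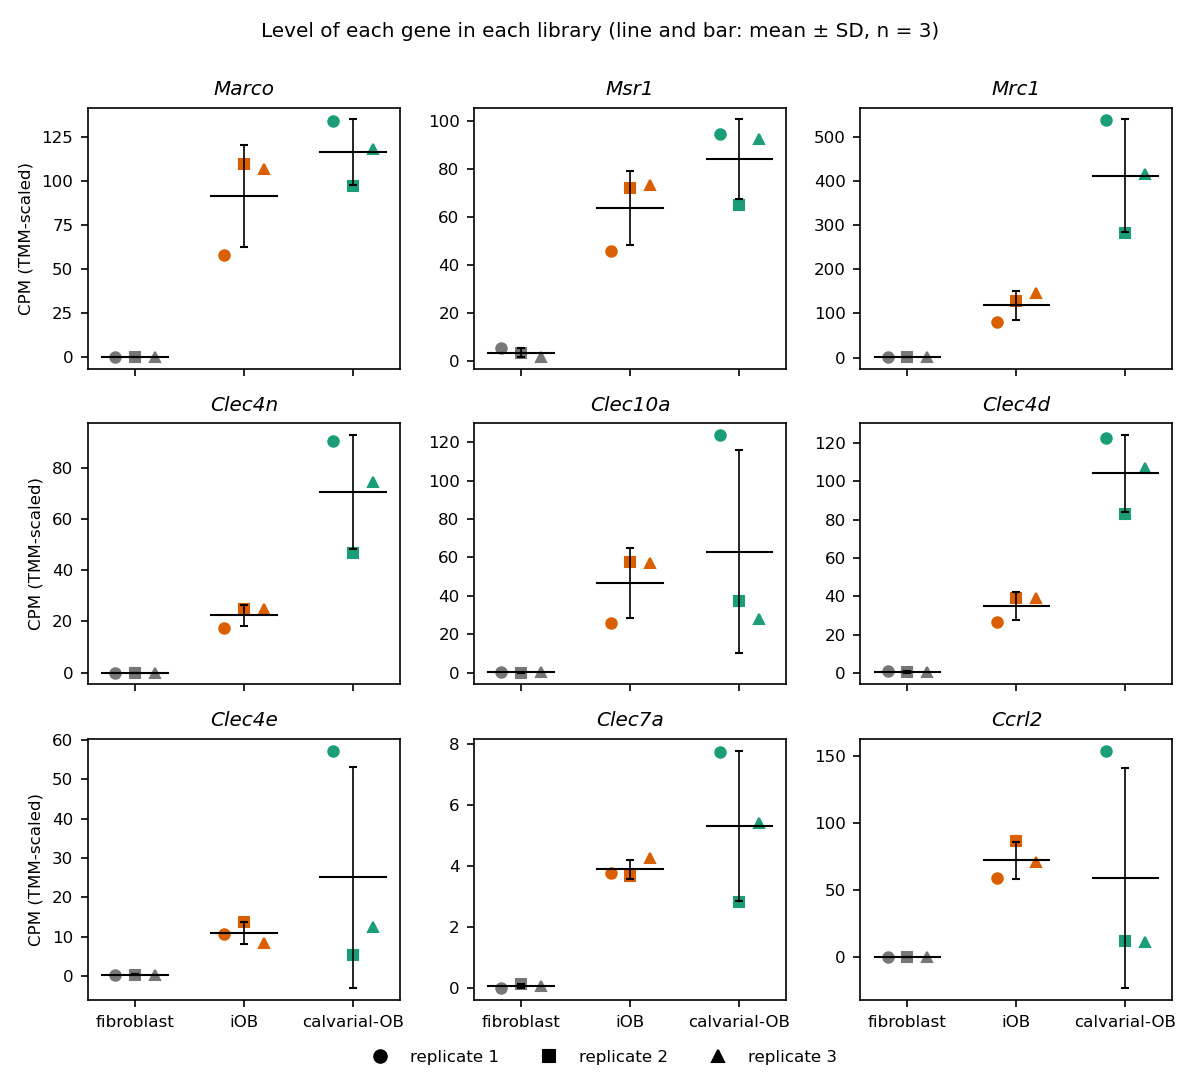
Level of each receptor gene in each of 9 libraries, in CPM on TMM-scaled library sizes (vertical axis, linear, its own scale in each panel), by group (horizontal axis); symbols are replicates, lines and bars the mean ± SD of 3. Fibroblast libraries lie near 0 in every panel, and calvarial-OB replicate 1 (circle) lies far above replicates 2 and 3 for Clec10a, Clec4e and Ccrl2.

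The class A scavenger receptors come first. Marco, which binds bacteria and particles, had 1, 0 and 2 counts in the fibroblast libraries (0.094, 0 and 0.17 CPM). It stood at 58.2, 109.5 and 106.7 CPM in iOB replicates 1 to 3 and at 134.0, 97.1 and 118.1 CPM in calvarial-OB. Levels in both osteoblast cultures were far above those of fibroblasts, and the osteoblast cultures overlapped each other. From the summed counts, Marco was 920.5-fold higher in iOB (95% Clopper-Pearson interval 314.5 to 4467, counting error only) and 1158-fold higher in calvarial-OB (395.9 to 5617). Without fibroblast replicate 3 these ratios were 1642 and 2065.

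Msr1, the scavenger receptor for acetylated lipoprotein, had reads in every fibroblast library, at 5.18, 3.12 and 1.58 CPM. It reached 45.7, 72.1 and 73.1 CPM in iOB and 94.6, 65.1 and 92.6 CPM in calvarial-OB. The log2 fold change over fibroblasts was 4.28 ± 0.33 (SE) in iOB and 4.69 ± 0.33 in calvarial-OB, the smallest of the list in each. As with Marco, iOB replicate 1 was the lowest of its group and the osteoblast cultures overlapped.

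Mrc1, the mannose receptor (CD206), takes up glycoproteins with exposed mannose and is a marker of tissue macrophages. It stood at 1.70, 2.41 and 1.66 CPM in fibroblasts, 81.1, 127.6 and 146.1 CPM in iOB and 536.8, 281.3 and 414.6 CPM in calvarial-OB. The 3 groups did not overlap, and all calvarial-OB libraries lay above all iOB libraries. Its log2 fold change over fibroblasts was 5.98 ± 0.34 in iOB and 7.77 ± 0.35 in calvarial-OB.

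Clec10a, the galactose-binding lectin MGL1, had 0.28, 0 and 0.083 CPM in fibroblasts. It stood at 25.9, 57.5 and 56.9 CPM in iOB and at 123.9, 37.1 and 28.0 CPM in calvarial-OB. Calvarial-OB replicate 1 was above every iOB library, while the other calvarial-OB libraries fell between the iOB values. The log2 fold change over fibroblasts was 8.31 ± 0.95 in iOB and 8.72 ± 0.93 in calvarial-OB. Without fibroblast replicate 1 it was 9.47 and 9.88, and without calvarial-OB replicate 1 the latter was 7.76.

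The neighbouring genes Clec4n, Clec4d and Clec4e encode lectins of the Dectin-2 family, which pair with Fcer1g. Clec4n (Dectin-2), a receptor for fungal mannans, had 0 counts in every fibroblast library. It stood at 17.5, 24.7 and 24.7 CPM in iOB and at 90.6, 46.6 and 74.3 CPM in calvarial-OB, again without overlap between the osteoblast cultures. Against a floor of 3 counts over the fibroblast group, Clec4n was at least 708-fold higher in calvarial-OB and at least 223-fold higher in iOB. These bounds were 455 and 143 without fibroblast replicate 1, and 421 and 132 without replicate 3.

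Clec4d (MCL), which forms pairs with Clec4e, stood at 1.22, 0.57 and 0.25 CPM in fibroblasts. It reached 26.6, 39.0 and 39.1 CPM in iOB and 122.7, 82.9 and 107.0 CPM in calvarial-OB, with all calvarial-OB libraries above all iOB libraries. The log2 fold change over fibroblasts was 5.67 ± 0.35 in iOB and 7.24 ± 0.33 in calvarial-OB, or 6.51 and 8.09 without fibroblast replicate 1. Clec4e (Mincle), a receptor for mycobacterial cord factor that inflammatory stimuli induce in macrophages, differed from its neighbours. It stood at 0.38, 0.42 and 0.25 CPM in fibroblasts, 10.7, 13.8 and 8.34 CPM in iOB and 57.3, 5.39 and 12.6 CPM in calvarial-OB. Calvarial-OB replicate 1 was the highest of all 9 libraries and calvarial-OB replicate 2 the lowest of the 6 osteoblast libraries. The log2 fold change over fibroblasts was 4.98 ± 1.04 in iOB and 6.14 ± 0.97 in calvarial-OB, or 4.73 in the latter without calvarial-OB replicate 1.

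Clec7a (Dectin-1), the receptor for fungal beta-glucan that carries its own signalling motif, had 2 counts over the fibroblast libraries and 83 over the iOB libraries. It had 0, 0.14 and 0.083 CPM in fibroblasts, 3.78, 3.67 and 4.25 CPM in iOB and 7.75, 2.82 and 5.40 CPM in calvarial-OB, and the osteoblast cultures overlapped. The ratio of summed counts to fibroblasts was 57.5 in iOB (95% interval 15.4 to 483) and 79.5 in calvarial-OB (21.7 to 662). These ratios were 37.0 and 51.1 without fibroblast replicate 1, and 87.7 and 121 without replicate 2.

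Ccrl2 encodes an atypical receptor of the chemokine receptor family that binds the chemoattractant chemerin without signalling and is induced by inflammatory stimuli. It had 0, 0 and 2 counts in fibroblasts. It stood at 59.3, 86.8 and 71.2 CPM in iOB and at 154.0, 11.8 and 11.7 CPM in calvarial-OB. Calvarial-OB replicate 1 was therefore above all iOB libraries, and replicates 2 and 3 were below all of them. The ratio to fibroblasts was 1098 in iOB (95% interval 303 to 9074) and 724 in calvarial-OB (200 to 5981). In calvarial-OB it was 174 without calvarial-OB replicate 1 and 1239 without replicate 3. Without fibroblast replicate 1 the ratios were 706 and 465, and without fibroblast replicate 3, which held the only fibroblast reads, Ccrl2 was at least 435-fold and 287-fold higher.

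Setting iOB beside calvarial-OB asked where the receptors of induced and native osteoblast cultures differed. Mrc1, Clec4n and Clec4d were lower in iOB and did not overlap, with log2 fold changes of -1.80 ± 0.24, -1.66 ± 0.24 and -1.58 ± 0.21 (SE). These 3 of 9 were called lower, beside 24.1% of tested genes, and groups did not overlap in this direction for 27.3% of tested genes. None of the 9 was called higher, beside 24.7% of tested genes, and the median log2 fold change of the 9 was -0.45 against -0.03 over all tested genes. Marco at -0.35 ± 0.21, Msr1 at -0.40 ± 0.26 and Clec7a at -0.45 ± 0.34 were not called. Clec10a, Clec4e and Ccrl2 had wide errors, with -0.42 ± 0.47, -1.16 ± 0.62 and 0.31 ± 0.74. Without calvarial-OB replicate 1, Clec10a was at 0.59 and Clec4e at 0.29, on the other side of 0, and Ccrl2 was at 2.68 and called higher, while Mrc1, Clec4n and Clec4d stayed called at -1.51, -1.40 and -1.40. Without calvarial-OB replicate 2, Clec4e was at -1.63 and called lower, and Ccrl2 was at -0.17.

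**Figure D2:**
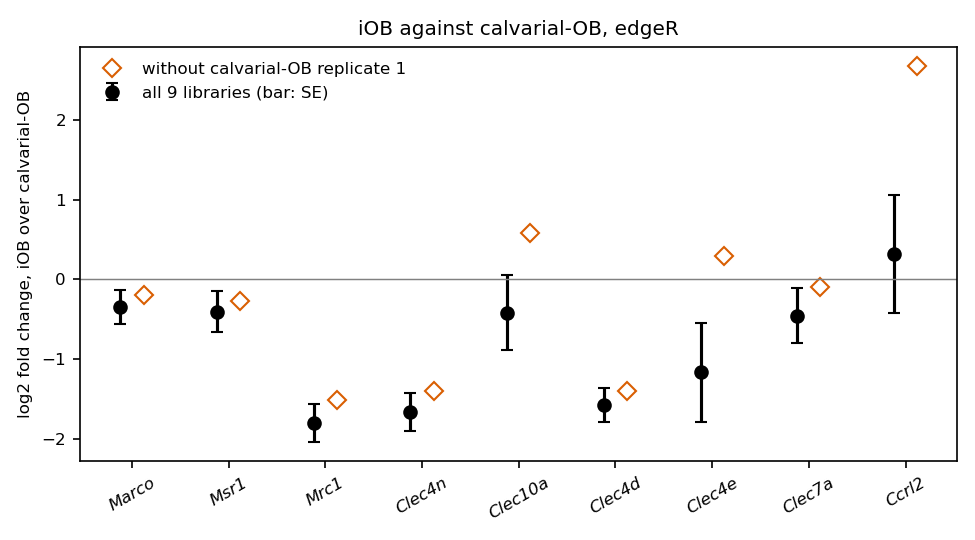
Log2 fold change of each receptor gene in iOB over calvarial-OB from edgeR (vertical axis), with all 9 libraries (filled circles, bars are SE) and without calvarial-OB replicate 1 (open diamonds). Mrc1, Clec4n and Clec4d lie between -1.80 and -1.40 in both, while Clec10a, Clec4e and Ccrl2 lie at 0.59, 0.29 and 2.68 without that library.

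Calvarial-OB replicate 1 was compared with the mean of replicates 2 and 3 on CPM + 1. Over all tested genes the median ratio was 0.989, and 2.55% of genes were at least 2-fold higher in replicate 1. Of the receptors 3 of 9 were, Clec10a (3.72-fold), Clec4e (5.84-fold) and Ccrl2 (12.2-fold), while the other 6 ranged from 1.20-fold for Msr1 to 1.71-fold for Clec7a. The macrophage core genes had a median ratio of 1.70 and reached at most 2.33. Of 15 inflammatory response genes 13 were at least 2-fold higher in replicate 1, with a median of 3.89. Il1b, an inflammatory cytokine, stood at 65.1, 0.98 and 5.79 CPM in calvarial-OB replicates 1 to 3, and Tnf at 374.9, 49.0 and 33.5 CPM. Nlrp3, a sensor of the inflammasome, stood at 90.6, 12.7 and 13.7 CPM. Osteoblast and fibroblast genes had median ratios of 0.976 and 1.00, with none at least 2-fold higher. Of 5 tested dendritic cell genes 4 were at least 2-fold higher, with a median of 3.97, and Cd74, the invariant chain of antigen presentation, stood at 18.3, 1.47 and 1.89 CPM. Zbtb46 went the other way, at 1.70, 3.19 and 1.37 CPM (0.822-fold). Of the markers not tested, Xcr1 had 10, 5 and 5 counts in all in fibroblast, iOB and calvarial-OB libraries, and Flt3 was not among the counted genes. Whether replicate 1 held more dendritic cells was not tested. The part of the inflammatory and dendritic cell genes in the values of Clec10a, Clec4e and Ccrl2 was not tested.

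**Figure D3:**
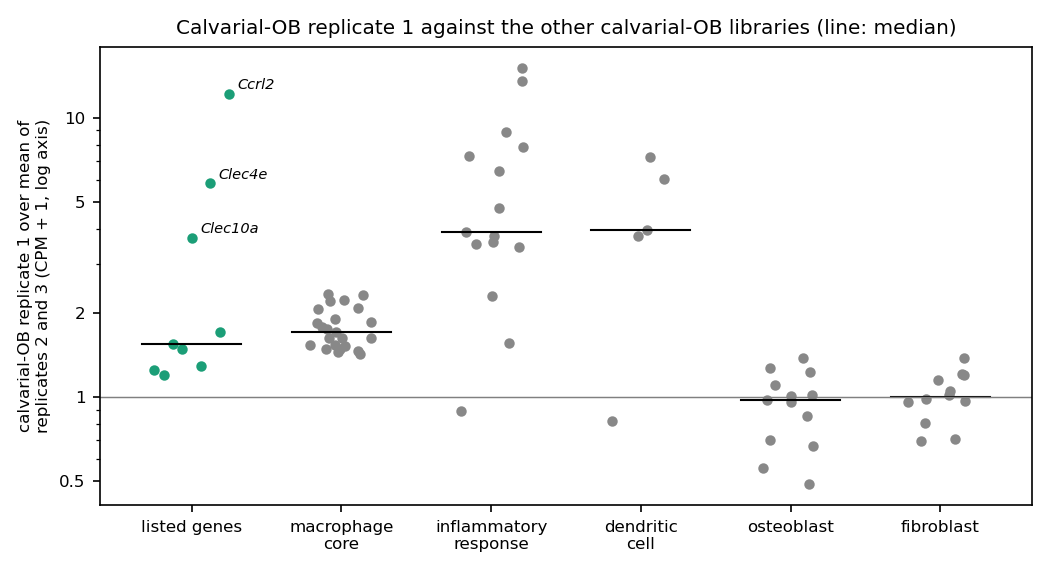
Ratio of calvarial-OB replicate 1 to the mean of replicates 2 and 3 on CPM + 1 (vertical axis, logarithmic), 1 point per tested gene of each list, lines at the median. Among the receptors Ccrl2, Clec4e and Clec10a lie at 12.2, 5.84 and 3.72, the medians of inflammatory response and dendritic cell genes are 3.89 and 3.97, and osteoblast and fibroblast genes scatter around 1.

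Because the amount of macrophage RNA differed between libraries, each receptor was also set against the macrophage core, as its log2(CPM + 1) minus the mean of the 23 core genes in the same library. On this scale Mrc1 stood at 0.63, 0.67 and 0.83 in iOB and at 1.70, 1.71 and 2.03 in calvarial-OB. Clec4n stood at -1.52, -1.66 and -1.69 in iOB and at -0.86, -0.86 and -0.43 in calvarial-OB. Clec4d stood at -0.94, -1.02 and -1.04 in iOB and at -0.42, -0.04 and 0.08 in calvarial-OB. These 3 genes remained lower in iOB without overlap relative to the core, by 1.10, 0.90 and 0.87 on the log2 scale, and the other 6 overlapped. For Ccrl2 the relative values were 0.18, 0.12 and -0.20 in iOB and -0.10, -2.76 and -3.01 in calvarial-OB, so that calvarial-OB replicate 1 lay with the iOB libraries. The core genes were themselves not level between these groups, with a median log2 fold change of -0.69. Of the 23, 10 were called lower in iOB and none higher, beside 24.1% and 24.7% of all tested genes. Without calvarial-OB replicate 1, 9 were lower and 2 higher, beside 23.8% and 29.1%.

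**Figure D4:**
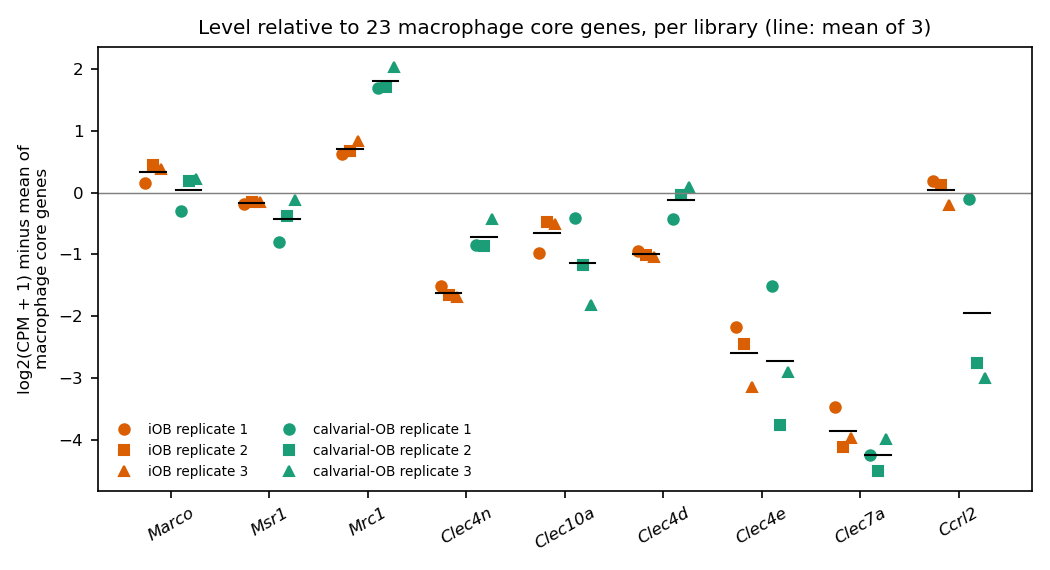
Level of each receptor gene relative to the macrophage core, as log2(CPM + 1) minus the mean of 23 core genes (vertical axis), for 3 iOB and 3 calvarial-OB libraries, lines at the mean of 3. Mrc1, Clec4n and Clec4d are lower in every iOB library than in every calvarial-OB library, and Ccrl2 of calvarial-OB replicate 1 lies among the iOB values.

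Across the 6 osteoblast libraries, log2(CPM + 1) of Mrc1 correlated with that of Clec4n and Clec4d at 0.994 each and that of Clec4n with Clec4d at 0.991 (Pearson's r, n = 6, given as a description). Marco and Msr1 correlated at 0.964 and Clec4e with Clec7a at 0.897, while Ccrl2 and Mrc1 had r = -0.22. These 6 points share the 2 groups and their total macrophage RNA. Over all 9 libraries, where the step from fibroblasts to the other groups dominates, the genes most like the mean of the receptors were Csf1r (r = 0.998), A530064D06Rik, Ly9, Laptm5 and Dpep2 (0.997). The genes most like Mrc1 were Wfdc17, Cd53 and Clec4n, and those most like Clec4n were Wfdc17, Mrc1 and Cd53. For Clec4d they were Fcer1g, C3ar1 and Fxyd1, for Clec10a Mgl2, Pld4 and Arap3, and for Marco Pappa2, Pla2g7 and Slc11a1. Msr1 was most like Tlr13, Ptpn6 and Emr1, and Clec7a most like Bcl2a1a, Cd300ld and Mctp1. Clec4e was most like Cd83, Mtmr10 and Naip6, and Ccrl2 most like Dhrs1, Neu1 and Nlrp3. These correlations ranged from 0.989 to 0.999, and over so few libraries the order of genes within them is not firm.

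The authors' deposited tables give the same receptors a further reading, including GFP-sorted cells. In the authors' deposited table for iOB against fibroblasts, 8 of the 9 were called higher, beside 19.9% of the genes with an adjusted p-value. The p-value of Ccrl2 was missing there, as it was for 0.167% of genes (30 genes). The tool named in the processing notes, DESeq2, leaves a p-value out when the count of 1 library lies far from the others of its group. In a refit of the count table the largest distance of this kind (Cook's distance) for Ccrl2, 4.18, was that of calvarial-OB replicate 1, as it was for 20 of the 30 genes. The refit itself left out the p-value of 13 of the 30, and Ccrl2 was not among them, so the cause of the missing values was not tested. The log2 fold change of Ccrl2 in the authors' deposited table was 3.74 ± 0.76 (SE), and that of Marco was 8.03 ± 0.45. The refit, which shrank fold changes with the DESeq2 prior, matched that table to a median difference of 0.000338, so its fold changes are moderated towards 0. The same was not tested for the table of sorted cells.

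In the authors' deposited table for iOB GFP+ against fibroblasts, the p-value was missing for all 9 receptors, beside 2.13% of all genes (377 of 17737). None of the 9 was therefore called higher there, beside 23.7% of the genes with an adjusted p-value. Their log2 fold changes were positive, with errors near 1. In the authors' deposited table Marco stood at 5.78 ± 1.02 and Ccrl2 at 5.64 ± 0.99, Clec4n at 4.31 ± 1.10 and Clec10a at 4.28 ± 1.04. Lower in the authors' deposited table were Mrc1 at 3.65 ± 0.94, Clec7a at 3.24 ± 1.00, Clec4d at 3.22 ± 1.00, Clec4e at 2.68 ± 1.07 and Msr1 at 2.43 ± 0.99. The p-value was missing in the authors' deposited table also for 22 of 23 macrophage core genes, for 10 of 17 inflammatory response genes and for none of 13 osteoblast or 12 fibroblast genes. Mertk, a receptor for dying cells and the core gene with a p-value, stood at 4.84 ± 0.29 in the authors' deposited table and was called. Which library lies apart cannot be read from that table, and the libraries of iOB GFP+ and of GFP-positive bone chip cells were not analysed here.

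**Figure D5:**
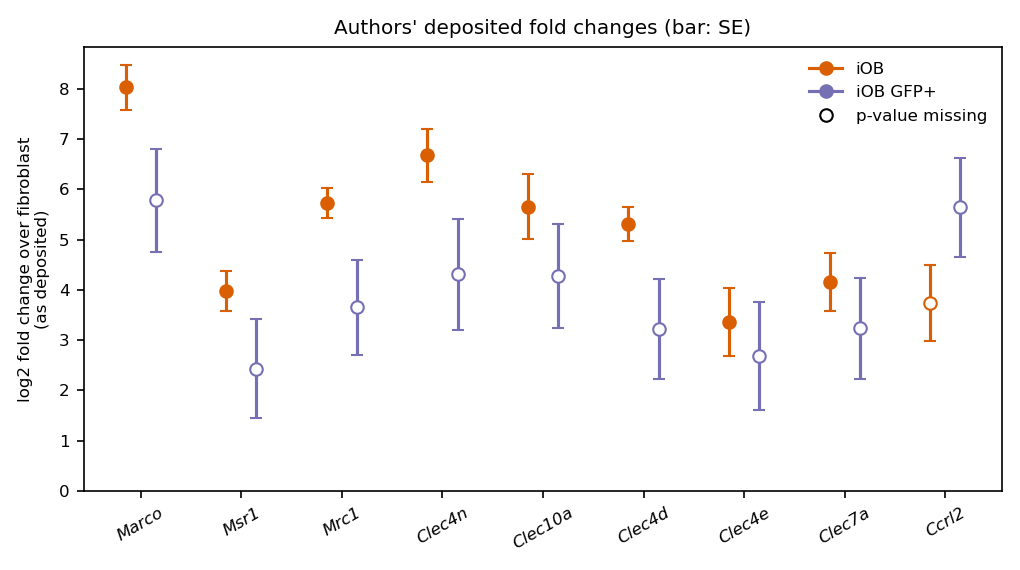
Log2 fold change over fibroblasts with its SE (vertical axis) for each receptor gene in the authors' deposited tables, for iOB (orange) and iOB GFP+ (purple); open symbols have a missing p-value. All 9 iOB GFP+ values and Ccrl2 in iOB are open, and the bars of iOB GFP+ are near 1.

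Other genes of the receptors' pathways were counted in the same fits, from lists that were also drawn up with earlier results known. Of 17 genes of lectin receptor signalling, 14 were called higher than fibroblasts in iOB and none lower, beside 22.7% and 20.6% of all tested genes. In calvarial-OB 12 were higher and 2 lower, beside 28.4% and 27.4%. Between the osteoblast cultures 7 were higher in iOB and 4 lower, beside 24.7% and 24.1%. The adaptors were on the lower side: Fcer1g stood at 39.5, 71.1 and 70.0 CPM in iOB and at 239.8, 131.4 and 157.5 CPM in calvarial-OB, with a log2 fold change of -1.55 ± 0.28 by edgeR (adjusted p = 0.00077). Tyrobp, the adaptor of other myeloid receptors, had -1.10 ± 0.27 (edgeR adjusted p = 0.0053; 0.086 with DESeq2, where it was not called). Card9, the scaffold downstream of Syk, had -1.21 ± 0.30 (edgeR adjusted p = 0.0058). The Src-family kinase genes Lyn and Fgr were higher in iOB, by 0.89 ± 0.12 and 2.23 ± 0.42 (edgeR adjusted p = 8.0e-05 and 0.0011). Rel, an NF-kB subunit, was higher by 1.62 ± 0.29 (edgeR adjusted p = 0.00067), and Syk itself was not called, at -0.22 ± 0.24 (edgeR adjusted p = 0.47). In the authors' deposited table for iOB GFP+, 7 of these 17 genes were called higher, 2 lower and 7 had no p-value. Of the 16328 genes with an adjusted p-value there, 3877 were higher and 3547 lower, and 2.13% of all genes had no p-value. In the authors' deposited table Fcer1g, Lyn and Plcg2 were called higher, at 4.84 ± 0.62, 2.16 ± 0.16 and 3.01 ± 0.23, whereas Syk, Card9 and Tyrobp had no p-value.

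Of 8 tested lectin genes of myeloid cells outside the list, 7 were called higher than fibroblasts in iOB and 7 in calvarial-OB, with 1 lower in each. The lower gene was Clec2d in iOB, with log2 fold changes of -1.35 to -0.96 over 17 alternative fits. In calvarial-OB it was Ly75, at -0.91 to -0.69. Clec2d and Ly75 thus had reads in fibroblasts, and the cell type behind their differences was not tested. The shares of all tested genes called higher were 22.7% and 28.4% in these comparisons, and those called lower 20.6% and 27.4%. Between the osteoblast cultures, where 24.7% of all tested genes were higher in iOB and 24.1% lower, 1 was higher and 5 lower. These 5 were 4 without calvarial-OB replicate 1 and 3 without calvarial-OB replicate 3, fibroblast replicate 2, iOB replicate 1 or iOB replicate 2. Clec2d, a ligand of natural killer cell receptors, had a log2 fold change of -2.25 ± 0.20 and the inhibitory receptor gene Clec12a one of -1.26 ± 0.26 (edgeR adjusted p = 5.4e-06 and 0.0018). Ly75 (DEC-205), an uptake receptor of dendritic cells, was higher in iOB by 2.13 ± 0.19 (edgeR adjusted p = 4.2e-06). The 13 tested C-type lectin genes of other cell types had 6 members higher and 4 lower in iOB than in calvarial-OB, among them Mrc2, the collagen-binding relative of Mrc1, at 1.61 ± 0.13 (edgeR adjusted p = 2.8e-06). Mrc1 and Mrc2 thus had log2 fold changes of opposite sign. Among 8 tested genes of the Ccrl2 ligand, other receptors of that ligand and related chemokine receptors, 7 were higher than fibroblasts in iOB and 7 in calvarial-OB. Between osteoblast cultures 1 was higher in iOB and 4 lower (3 and 3 without calvarial-OB replicate 1, beside 29.1% and 23.8% of tested genes). The lower genes include that of the Ccrl2 ligand chemerin, Rarres2, at -1.53 ± 0.18, and the signalling chemerin receptor gene Cmklr1 at -1.42 ± 0.22 (edgeR adjusted p = 3.5e-05 and 0.00027). Ackr4 was also among them, at -0.47 (edgeR adjusted p = 0.049). Its call was lost with DESeq2, with a replicate block and with either other low-count filter. It was also lost without any 1 fibroblast or iOB library, and without calvarial-OB replicate 1 or 3.

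The 15 tested scavenger receptor genes outside the list, of which Cd68 is also a core gene, had 8 members higher and 1 lower in iOB than in fibroblasts (22.7% and 20.6% of all tested genes), and 12 higher and 2 lower in calvarial-OB (28.4% and 27.4%). The 1 lower in iOB was lost without any 1 iOB library, fibroblast replicate 2 or 3, or calvarial-OB replicate 2. Between the osteoblast cultures, beside 24.7% higher and 24.1% lower of all tested genes, 3 were higher in iOB and 7 lower (4 and 5 without calvarial-OB replicate 1). Stab1, the stabilin of tissue macrophages and sinusoidal endothelium, stood at 89.2, 114.3 and 141.4 CPM in iOB and at 798.4, 443.4 and 320.2 CPM in calvarial-OB, with -2.18 ± 0.30 on the log2 scale by edgeR (adjusted p = 0.00011). Megf10, an engulfment receptor of glia and muscle precursors, went the other way, at 2.34 ± 0.26 (edgeR adjusted p = 2.4e-05). Of 10 tested genes of alternative macrophage activation, 1 was higher in iOB than in calvarial-OB and 4 lower (2 and 3 without calvarial-OB replicate 1). Folr2, a folate receptor of resident macrophages, had -1.30 ± 0.25 and Lyve1, a hyaluronan receptor, -3.06 ± 0.37 (edgeR adjusted p = 0.0011 and 4.3e-05). Of 15 inflammatory response genes, 1 was higher and 2 lower in iOB than in calvarial-OB, against 8 higher and 1 lower without calvarial-OB replicate 1, where 29.1% of all tested genes were higher and 23.8% lower. They were 1 higher and 4 lower without calvarial-OB replicate 2, 2 higher and 5 lower without replicate 3, and 1 higher and 1 lower without iOB replicate 1. Of 5 tested dendritic cell genes 3 were called higher than fibroblasts in iOB and 4 in calvarial-OB (22.7% and 28.4% of all tested genes). In calvarial-OB this was 1 without calvarial-OB replicate 1, where 29.2% of all tested genes were higher, and 1 without fibroblast replicate 2 or 3. In iOB it was 1 without fibroblast replicate 2, fibroblast replicate 3 or iOB replicate 2. Of 6 tested osteoclast genes 5 and 4 were higher than fibroblasts. The summed level of the dendritic cell list was 2.97 to 3.77 CPM in fibroblasts, 8.77 to 26.1 in iOB and 8.79 to 53.8 in calvarial-OB, the last in replicate 1.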

How the data were processed

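RNA of 9 libraries (3 each of fibroblast, iOB and calvarial-OB) was analysed out of 33 samples in the series. The authors deposited whole-number counts per gene symbol. Software listed in the submitters' processing notes, without roles, was DESeq2, Bowtie2, STAR 2.4.2a and R 3.2.2, on the mm9 build. How genes were counted, with which annotation and strand setting, is not given in the sources used here. Without strand, reads of overlapping antisense genes cannot be told apart. The authors' deposited result tables hold, per the file headers, the mean normalized signal of each gene, its log2 fold change and SE, the test's score, and p-values before and after adjustment. The calvarial-OB libraries were matched to the columns named OB. The deposited methylation windows and the methylation libraries were not analysed here.

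Counts were fitted for all 9 libraries together with edgeR 4.0.16 (glmQLFit and glmQLFTest, TMM, filterByExpr, group as the only term) in R 4.3.3, and a gene was called at an adjusted p (Benjamini-Hochberg over 13438 genes) below 0.05. SE is the absolute log2 fold change over the square root of F. CPM are on TMM-scaled library sizes. DESeq2 1.42.0 served as an alternative; other steps used Python 3.11.15 with pandas 2.3.3, scipy 1.17.1 and matplotlib 3.10.9. Where fibroblasts had 0 counts, a lower bound against 3 counts over the group is given, and where they had 1 to 3 counts a 95% Clopper-Pearson interval; without molecular identifiers both cover counting error only. On data simulated for iOB against fibroblast (13224 genes), 39 of 50 genes raised 2-fold and 50 of 50 raised 4-fold were recovered, and 10 of 13027 unchanged genes were called. Each simulated gene had its mean over all 9 libraries and the spread of the trend over genes. The simulation thus held no near-empty fibroblast group and no library set apart. Its rates do not carry over to genes such as Ccrl2 and Clec4e.

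The 9 genes and all other lists were chosen with earlier results of these data known. Named genes were the 9, up to 3 genes of each other list by smallest adjusted p between iOB and calvarial-OB and 3 by highest mean CPM, defining markers, and the genes most alike in pattern (5 for the mean of the 9, 3 for each gene). Card9, Fgr, Syk, Plcg2, Il1b, Tnf, Nlrp3 and Mertk were named after their values were seen.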

Additional observations from a re-analysis of the deposited data

How the results depend on the processing

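Each receptor gene was refitted under 17 alternatives (other normalizations, filters and tools, a replicate block, only the groups compared, without Rn45s, and each library left out). In both comparisons with fibroblasts all 153 values kept their direction and call, and the 9 genes were called higher in every alternative. Between iOB and calvarial-OB 147 of 153 did, and the exceptions were calvarial-OB libraries left out: without replicate 1 Clec10a was at 0.59, Clec4e at 0.29 and Ccrl2 at 2.68; without replicate 2 Clec4e was at -1.63 and Ccrl2 at -0.17; without replicate 3 Ccrl2 was at -0.19. Over the alternatives Clec10a ranged from -0.77 to 0.59, Clec4e from -1.63 to 0.29, Ccrl2 from -0.19 to 2.68, Mrc1 ranged from -1.99 to -1.51, Clec4n from -1.87 to -1.40 and Clec4d from -1.70 to -1.40. Mrc1, Clec4n and Clec4d were below calvarial-OB relative to the macrophage core also with the summed core as denominator and with pseudocounts of 0.5 and 2. Of the 5 genes most like the mean of the receptors, 0 were shared with the 5 found by Spearman's correlation, 0 with those from deviations within groups and 0 with those over the 6 osteoblast libraries, the last added after seeing the data, as were the counts of the other lists without calvarial-OB replicate 1. In the authors' tables, an adjusted p below 0.01 gave 8 receptors higher in iOB, beside 2616 of the 16208 genes with an adjusted p-value. It gave 0 in iOB GFP+, where all 9 p-values are missing, beside 3141 of 16328 genes.

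Whether replicate numbers pair the samples cannot be settled here, since the 3 deviations within a group depend on each other. Same-numbered libraries deviated from their group means with correlations of -0.086, 0.026 and -0.010 for iOB with fibroblast. Those for calvarial-OB with fibroblast were 0.156, -0.018 and 0.159, and those for iOB with calvarial-OB -0.165, -0.145 and -0.081. Libraries of different number ranged from -0.107 to 0.097, from -0.224 to 0.148 and from -0.087 to 0.167 in these comparisons. With the replicate number as a block, 9, 9 and 3 receptor genes were called in the comparisons of iOB and calvarial-OB with fibroblasts and of iOB with calvarial-OB, as without it. Depth limits Clec7a, and every fold over the near-empty fibroblast counts.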
